A study of Arabidopsis thaliana with 2 samples.

Results

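The genes described here write and remove acetyl groups on histones: 12 histone acetyltransferases of the HAC, HAF, HAG and HAM families, 12 deacetylases of the RPD3 type (HDA), the 2 sirtuins SRT1 and SRT2, and the 4 plant-specific HD2 deacetylases HDT1 to HDT4. They were taken by locus identifier, 30 of the 33602 loci in the deposited table, and RefSeq gives each of the 30 loci the name used here. RNA was taken from the main stem of Arabidopsis thaliana hdt1 mutant plants and of wild-type plants, both 35 days after flowering. Plants of both genotypes grew in a greenhouse at 20 °C with 16 h of light and 8 h of dark. The series was made to find transcripts that differ in the hdt1 stem. It holds 1 library per genotype, so the spread between plants is unknown and p-values are left out. The sources used here do not give the mutant allele, the background accession or the number of plants behind a library.

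Histone acetyltransferases move an acetyl group from acetyl-CoA to lysines in histone tails, which loosens chromatin and marks active genes, and deacetylases take it off again. In plants the acetyltransferases fall into the p300/CBP-like HAC proteins, the TAF1-like HAF proteins, the GCN5-related HAG proteins and the MYST-type HAM proteins. RPD3-type deacetylases are related to the yeast enzyme RPD3 and need zinc, sirtuins need NAD, and HD2 proteins occur in plants and sit largely in the nucleolus. HDT1 is also called HD2A.

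The totals behind the values were 23070249 counted in the hdt1 library and 21728500 in the wild-type library. Levels are FPKM, fragments scaled to gene length and to library total, so they can be compared between genes. A fold is the ratio of the 2 FPKM values, hdt1 over wild type or the inverse where it is called lower, and the brackets after it hold a 95% exact (Clopper-Pearson) interval from the reads behind the values. These intervals cover counting error in 2 libraries and nothing else, and reads are not independent molecules. They narrow as read numbers rise. Shares of loci with an interval above or below 1 were not matched for read number. Read numbers were settled for 81.5% of loci with reads and are minimum values for the rest. The shares above or below 1 may thus be too low, and the share including 1 too high. Log2 ratios are instead computed from FPKM + 1, for the 17811 loci with a mean of at least 1 FPKM. Their median was -0.03, with quartiles of -0.21 and 0.18. The 10 stem markers examined, genes of xylem, fibres, phloem, cambium and the KNAT1 gene of the stem, were above 0 FPKM in both libraries. They summed to 373 FPKM in hdt1 against 263 FPKM in wild type, with log2 ratios above 0 for all 10, against 46.0% of loci, and past 2-fold for CESA4, CESA7 and CESA8 of the secondary wall, against 2.32% of loci, KNAT1 turning to -0.01 when the length trend described further on was removed. The 3 seed markers were at 0.143 FPKM or lower, and the flower markers AP3, PI and SEP3 summed to 1.75 FPKM in hdt1 against 1.29 FPKM in wild type. Most of that sum was SEP3, at 1.63 FPKM in hdt1 against 0.907 FPKM in wild type. AP3 and PI were lower in hdt1, from few reads: 0 against 3 for AP3 and 3 against 6 for PI. In bulk RNA, fewer cells of a type and less RNA per cell cannot be told apart, and the part of these tissue markers in the values below was not tested.

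HDT1 (AT3G44750), the mutated gene, stood at 5.19 FPKM in hdt1 against 52.6 FPKM in wild type. It was 10.2-fold lower (8.42 to 12.3) with a log2 ratio of -3.12, from at least 123 reads in hdt1 and 1176 in wild type. Among the 24 members averaging 1 FPKM or more (all but HAC2, HAF2, HDA7, HDA10, HDA17 and HDA18) it alone was at least 2-fold lower on the log2 scale, where 0.741% of all loci were, and 0 members were 2-fold higher, where 2.32% were. At a limit of 1.5-fold HDT1 was again the only member lower and 0 were higher, against 3.21% of loci lower and 7.04% higher. AT3G44740, annotated as a class II aminoacyl-tRNA synthetase family gene on the opposite strand, overlaps HDT1 in RefSeq. There 19.4% of the 50-base windows of the HDT1 transcript lie in it. RefSeq gives HDT1 1418 exon bases, while the smallest length its values allow is 1028 bases. The overlap in the gene model counted is thus unknown. AT3G44740 was at 4.60 FPKM in hdt1 against 9.66 FPKM in wild type. The sources used here do not say if counting used strand, so reads in the overlap cannot be assigned to either gene with certainty.

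**Figure D1:**
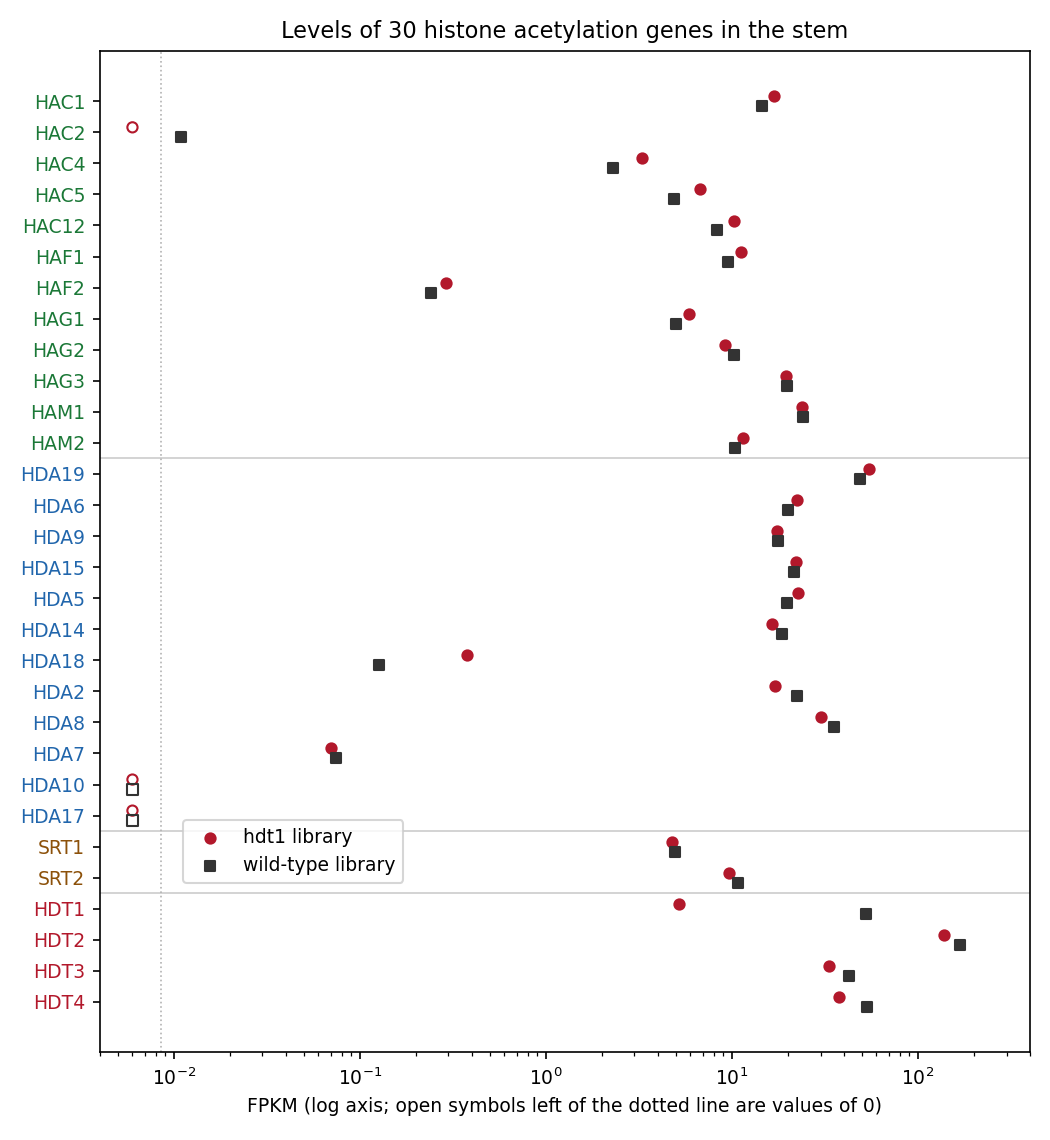
Level of each of the 30 genes in FPKM on a log axis, with circles for the hdt1 library and squares for the wild-type library; open symbols at the left edge are values of 0. HDT1 is the gene with the widest gap among those above 1 FPKM, and HDT2, at 139 FPKM in hdt1 against 169 FPKM in wild type, is the highest member in both libraries.

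The other 3 HD2 genes also had lower values in the hdt1 library. HDT2 (AT5G22650, HD2B), the most abundant of all 30 members, was at 139 FPKM in hdt1 against 169 FPKM in wild type, from 3977 reads in hdt1 and 4554 in wild type. HDT3 (AT5G03740, HD2C), known from abscisate and stress responses and as a partner of HDA6, was at 33.3 FPKM in hdt1 against 42.9 FPKM in wild type. HDT4 (AT2G27840, HD2D) was at 37.5 FPKM in hdt1 against 53.5 FPKM in wild type. The counting interval lay below 1 for each of the 4 HD2 genes, HDT1 included, as it did for 28.9% of all loci. HDT4 had the largest difference of the 3, at 1.43-fold lower, and its interval (1.17 to 1.74) was computed from the smallest read numbers its values allow, 181 in hdt1 and 243 in wild type. Its log2 ratio was -0.50, and 5.02% of the loci compared had a lower one. For HDT3 that share was 11.3% and for HDT2 17.1%. Among loci of like exon length, 5.95% had a lower log2 ratio than HDT4, 13.3% a lower one than HDT3 and 15.3% a lower one than HDT2. The length behind the HDT4 values was not settled, and its RefSeq length of 1290 bases was used. The log2 ratios of HDT2, HDT3 and HDT4 stayed below 0 under each of the 3 other scalings and the 2 other pseudocounts. They also did with length and GC trends removed.

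The order of levels within the HD2 class was not the same in the 2 libraries. In the wild-type library HDT4 and HDT1, at 53.5 and 52.6 FPKM, were close to each other below HDT2, and HDT3 was lowest at 42.9 FPKM. In the hdt1 library HDT1 was last by a wide margin. HDT2 exceeded HDT1 by 26.8-fold in the hdt1 library and by 3.21-fold in the wild-type library, whereas it exceeded HDT3 by 4.17-fold in the hdt1 library and 3.94-fold in the wild-type library. None of the other 3 HD2 genes had a higher value in hdt1 than in wild type.

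**Figure D2:**
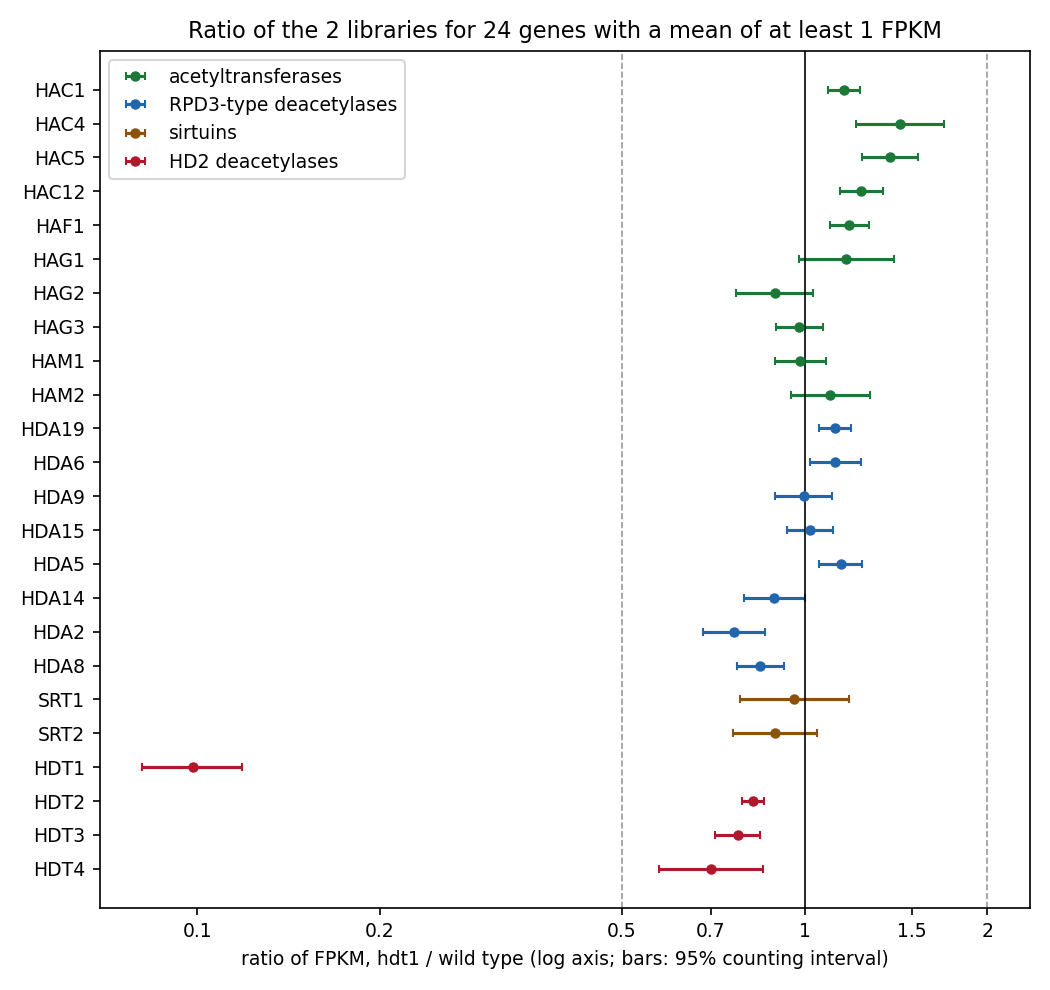
Ratio of FPKM, hdt1 over wild type, on a log axis for the 24 genes averaging 1 FPKM or more; points are ratios, bars are 95% counting intervals and dashed lines mark 2-fold either way. HDT1 lies at 0.0985, the other 3 HD2 genes lie between 0.702 and 0.823, and the HAC genes lie between 1.16 and 1.43.

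Among the acetyltransferases, 7 of the 10 that reached a mean of 1 FPKM had a log2 ratio above 0, against 46.0% of all loci, and 3 had one below 0. Intervals were wholly above 1 for 5 of these genes, against 24.7% of loci, and wholly below 1 for 0. All 5 are long genes of the HAC and HAF families, and in the fifth of loci with the longest exons 69.3% were above 0. Among loci of like exon length, 41.9% had a lower log2 ratio than HAC1, 45.3% than HAF1 and 60.9% than HAC12. For HAC5 and HAC4 these shares were 85.0% and 87.3%. Like length here means the same of 50 bins. HAC1, HAF1, HAC12 and HAC5 fall in the longest bin, a broad one with a median of 5624 bases and a maximum of 16614. HAC1 (AT1G79000), a p300/CBP-like acetyltransferase that with its relatives HAC5 and HAC12 promotes flowering, was at 16.9 FPKM in hdt1 against 14.5 FPKM in wild type. HAC12 (AT1G16710) was at 10.3 FPKM in hdt1 against 8.31 FPKM in wild type. These are the most abundant members of the family, and HAC1 stood 1.64-fold above HAC12 in the hdt1 library and 1.74-fold above it in the wild-type library. HAC5 (AT3G12980) was at 6.77 FPKM in hdt1 against 4.91 FPKM in wild type, 1.38-fold higher (1.24 to 1.53). HAC4 (AT1G55970) was at 3.31 FPKM in hdt1 against 2.30 FPKM in wild type, 1.43-fold higher (1.21 to 1.70). HAC4 and HAC5, at 0.38 and 0.40, had the highest log2 ratios of the 24 members. HAC2 (AT1G67220) had 0 reads in the hdt1 library and 1 in the wild-type library, and 3 reads of it correspond to 0.0309 FPKM in hdt1 and 0.0328 FPKM in wild type.

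HAF1 (AT1G32750), a TAF1-like protein of the general factor TFIID, was at 11.3 FPKM in hdt1 against 9.49 FPKM in wild type, 1.19-fold higher (1.101 to 1.28). Its copy HAF2 (AT3G19040) was at 0.291 FPKM in hdt1 against 0.240 FPKM in wild type, from 36 reads in hdt1 and 28 in wild type. HAF1 stood at 38.7 times the level of HAF2 in the hdt1 library and 39.5 times in the wild-type library. The 2 transcripts share 5 exact windows of 50 bases.

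The GCN5-related and MYST-type genes had intervals that include 1 in 5 of 5 cases, as did 46.4% of all loci. HAG1 (AT3G54610, GCN5), the catalytic subunit of the SAGA complex, was at 5.91 FPKM in hdt1 against 5.04 FPKM in wild type. HAG2 (AT5G56740), related to the yeast enzyme HAT1 that acetylates new histone H4, was at 9.18 FPKM in hdt1 against 10.3 FPKM in wild type. HAG3 (AT5G50320, ELP3), the catalytic subunit of Elongator, was at 19.5 FPKM in hdt1 against 19.9 FPKM in wild type. HAM1 (AT5G64610), a MYST-type acetyltransferase of histone H4, was at 23.9 FPKM in hdt1 against 24.3 FPKM in wild type, and was the most abundant acetyltransferase in both. HAM2 (AT5G09740), which acts redundantly with HAM1 on histone H4, was at 11.5 FPKM in hdt1 against 10.4 FPKM in wild type. The log2 ratios of HAG3 (-0.03) and HAM1 (-0.02) turned positive under each of the 3 other scalings, so neither has a direction.

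Of the 8 RPD3-type deacetylases with a mean of at least 1 FPKM, 4 had a log2 ratio above 0 and 4 below 0, where 54.0% of all loci were below 0. HDA19 (AT4G38130), a broadly acting deacetylase that works with TOPLESS and SIN3-like corepressors, was the most abundant at 54.6 FPKM in hdt1 against 48.6 FPKM in wild type, 1.12-fold higher (1.06 to 1.19). HDA6 (AT5G63110), which silences transposons and ribosomal RNA genes, was at 22.5 FPKM in hdt1 against 20.1 FPKM in wild type, 1.12-fold higher (1.02 to 1.24). AT5G63100, a methyltransferase-family gene that overlaps HDA6 by 28 bases on the same strand, was at 1.91 FPKM in hdt1 against 4.03 FPKM in wild type, 2.10-fold lower (1.52 to 2.95). HDA19 stood 2.42-fold above HDA6 in both libraries. HDA5 (AT5G61060), a class II enzyme, was at 22.7 FPKM in hdt1 against 19.8 FPKM in wild type, 1.15-fold higher (1.06 to 1.24). The intervals of HDA19, HDA6 and HDA5, 3 of the 8, lie above 1, where 24.7% of all loci have such an interval.

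HDA2 and HDA8, 2 of the 8, had intervals below 1, as did 28.9% of all loci. HDA2 (AT5G26040), of the class IV type, was at 17.1 FPKM in hdt1 against 22.3 FPKM in wild type, 1.31-fold lower (1.16 to 1.47). HDA8 (AT1G08460) was at 30.1 FPKM in hdt1 against 35.6 FPKM in wild type, 1.18-fold lower (1.08 to 1.29). Among loci of like exon length in RefSeq 12.5% had a lower log2 ratio than HDA2 and 11.3% a lower one than HDA8. Over all loci these shares were 10.4% for HDA2 and 21.7% for HDA8. The length behind the HDA8 values was not settled. RefSeq gives 2374 exon bases, used here, while the smallest length its values allow is 1369 bases, so its like-length share is uncertain. HDA14 (AT4G33470), found in chloroplasts, was at 16.5 FPKM in hdt1 against 18.5 FPKM in wild type, 1.12-fold lower (0.998 to 1.26). HDA15 (AT3G18520), a partner of the phytochrome-interacting factor PIF3, was at 22.2 FPKM in hdt1 against 21.7 FPKM in wild type, and its log2 ratio of 0.03 was -0.03 with the trend of ratios with exon length removed. HDA9 (AT3G44680), which acts with POWERDRESS and HOS15, was at 17.6 FPKM in hdt1 against 17.7 FPKM in wild type, and its log2 ratio of -0.0044 turned positive under each of the 3 other scalings.

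The remaining 4 RPD3-type genes were near or at 0 FPKM in the stem. HDA18 (AT5G61070), known from cell patterning in the root epidermis, was at 0.379 FPKM in hdt1 against 0.127 FPKM in wild type. Its ratio of 2.98 (1.15 to 9.12) rests on 19 reads in hdt1 and 6 in wild type. HDA18 lies next to HDA5 in the genome, and the level of HDA5 was 59.8 times that of HDA18 in the hdt1 library and 156 times in the wild-type library. HDA5 and HDA18 share 25 exact windows of 50 bases, about 1.13% of those of HDA18. HDA7 (AT5G35600), known from the female gametophyte, had 2 reads in either library. HDA10 (AT3G44660) and HDA17 (AT3G44490), short copies related to HDA9, were listed at 0 in both libraries. They share 52.1% and 48.2% of their 50-base windows with other genes, HDA10 mostly with HDA17 and HDA17 mostly with HDA9, so reads from them may not have been assigned to 1 gene. With the RefSeq length, a count of 0 allows up to 0.303 FPKM of HDA10 in hdt1 and 0.322 FPKM in wild type.

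Both sirtuins had intervals that include 1. SRT1 (AT5G55760), a nuclear sirtuin, was at 4.79 FPKM in hdt1 against 4.98 FPKM in wild type. SRT2 (AT5G09230), found mainly in mitochondria, was at 9.62 FPKM in hdt1 against 10.7 FPKM in wild type. AT5G09240, which overlaps SRT2 on the opposite strand, was at 3.79 FPKM in hdt1 against 5.27 FPKM in wild type. The sign of SRT1 turned with libraries scaled to equal FPKM sums.

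Summed by class, the HD2 genes gave 215 FPKM in hdt1 against 318 FPKM in wild type, 1.48-fold lower. The interval of that fold, from a normal approximation to the counting error, was 1.41 to 1.55. Without HDT1 the sums were 209.6 FPKM in hdt1 against 265 FPKM in wild type, 1.26-fold lower (1.21 to 1.33). The acetyltransferases summed to 119 FPKM in hdt1 against 109.7 FPKM in wild type, 1.08-fold higher (1.04 to 1.12). Of this class the HAC family summed to 37.2 FPKM in hdt1 against 30.03 FPKM in wild type. RPD3-type genes summed to 204 FPKM in hdt1 against 205 FPKM in wild type, and sirtuins to 14.4 FPKM in hdt1 against 15.7 FPKM in wild type. The HD2 genes thus made up 38.9% of the summed FPKM of the 30 genes in the hdt1 library and 49.1% in the wild-type library. The sum over all deacetylases was 3.65 times that of the acetyltransferases in the hdt1 library and 4.90 times in the wild-type library. Without HDT1 these ratios were 3.60 in the hdt1 library and 4.42 in the wild-type library. Transcript sums say nothing of protein or enzyme activity.

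**Figure D3:**
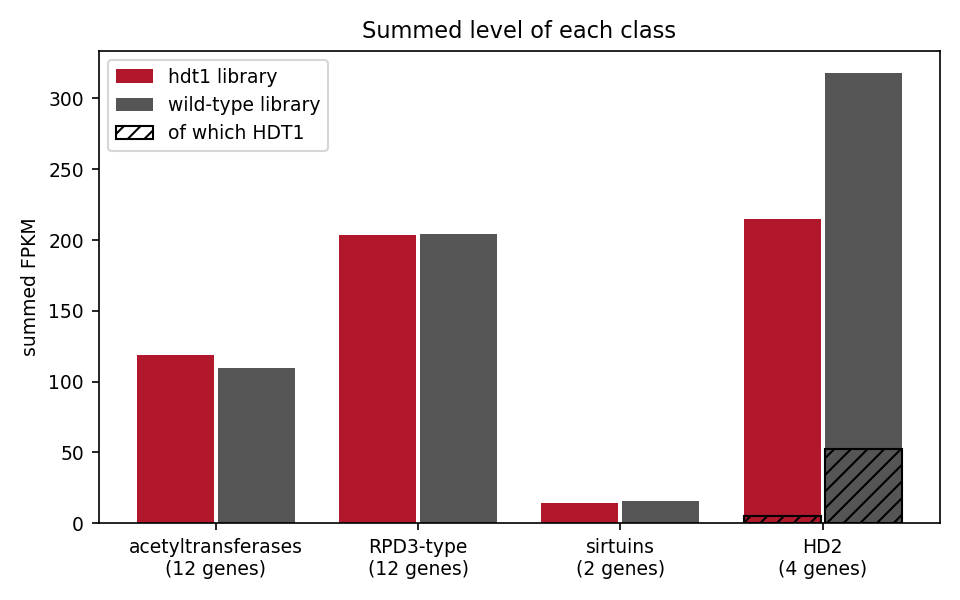
Summed FPKM of each class in the hdt1 library and the wild-type library; the hatched part of the HD2 bars is HDT1. The HD2 bar reaches 215 FPKM in hdt1 against 318 FPKM in wild type, while the RPD3-type bars differ by less than 1 FPKM.

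The log2 ratios moved with exon length. Over all loci, the fifth with the shortest exon length (71 to 1130 bases) had a median log2 ratio of -0.18, and 31.9% of its loci were above 0. The fifth with the longest (2584 to 16614 bases) had a median of 0.10, and 69.3% were above 0. The 4 HAC genes that reached a mean of 1 FPKM have 4526 to 6824 exon bases in RefSeq, HAF1 has 6190, and the HD2 genes have 1290 to 1537. The median log2 ratio of the acetyltransferases was 0.20, and 0.02 once the length trend was removed. For the HAC genes alone it was 0.33, and 0.07 after removal. HAC1 and HAF1 then had log2 ratios of -0.06 and -0.04, HAC12 was at 0.02 instead of 0.28, HAC4 at 0.18 instead of 0.38 and HAC5 at 0.13 instead of 0.40. The median of the 3 HD2 genes other than HDT1 was -0.36, and -0.28 after removal. The part of gene length in the class differences was not tested beyond this removal, a setting chosen after seeing the data.

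**Figure D4:**
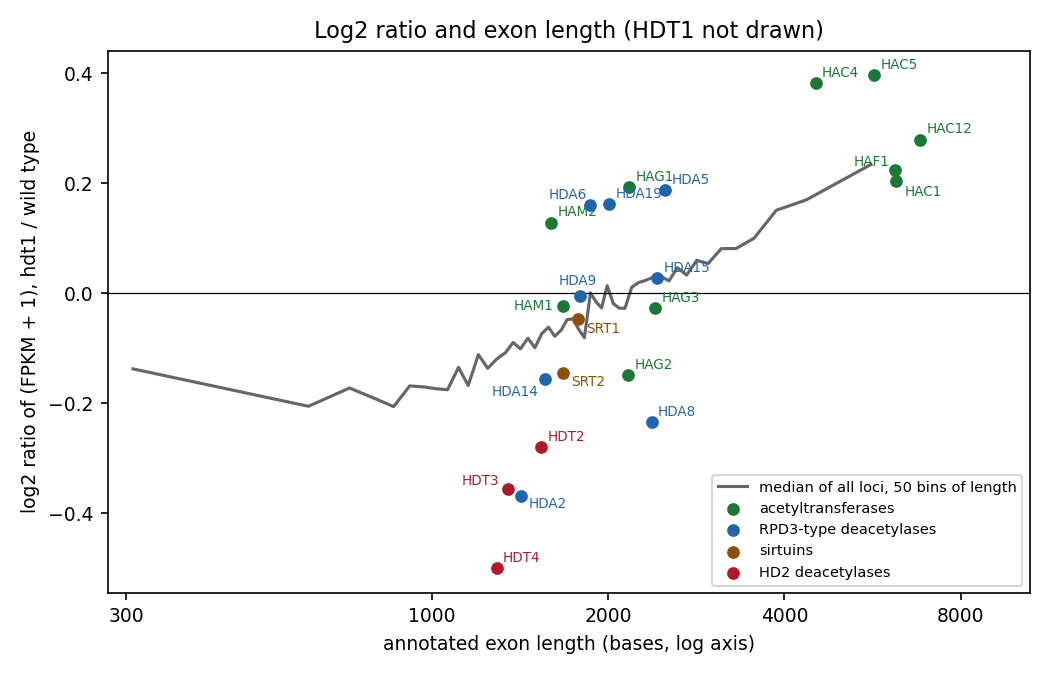
Log2 ratio of (FPKM + 1), hdt1 over wild type, against annotated exon length in bases on a log axis, with points for 23 members coloured by class and a line for the median of all loci in 50 bins of length. HDT1, at -3.12, is not drawn; HAC1 and HAF1 lie close to the line, and HDT2, HDT3, HDT4, HDA2 and HDA8 lie below it.

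Genes that work with these enzymes were examined in 4 lists, all with a mean of at least 1 FPKM. Of their 67 genes 0 were 2-fold higher or lower with 1 FPKM added, where 2.32% of all loci were higher and 0.741% lower. The splits below stand against 46.0% above 0 and 54.0% below 0 over all loci. Of the 23 partners of acetyltransferases, from SAGA, Elongator and NuA4-type complexes, log2 ratios of 8 lay above 0 and of 15 below, around a median of -0.06 that was -0.03 with the length trend removed. The kinase-like FAT-domain gene AT2G17930 was at 6.13 FPKM in hdt1 against 4.29 FPKM in wild type. Its log2 ratio of 0.43 was 0.17 with the length trend removed. ING1, a PHD-finger protein that reads methylated histone H3, was at 26.6 FPKM in hdt1 against 34.1 FPKM in wild type. Its log2 ratio of -0.35 was -0.20 with that trend removed. The helicase/SANT-associated genes AT3G24880 and AT3G24870 had log2 ratios of 0.31 and 0.29, which were 0.05 and 0.03 with the length trend removed.

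Of the 26 partners of deacetylases, log2 ratios of 19 lay above 0 and of 7 below, around a median of 0.13 that was within 0.01 of 0 once the length trend was removed. The SIN3-like scaffolds SNL2 and SNL4 and the corepressor TPR1, a relative of TOPLESS, had log2 ratios of 0.39, 0.37 and 0.39. With the length trend removed they were 0.19, 0.11 and 0.21. SNL2 was at 15.2 FPKM in hdt1 against 11.4 FPKM in wild type. SAP18, a small SIN3-associated protein and the most abundant gene of the list, was at 94.4 FPKM in hdt1 against 128 FPKM in wild type, 1.35-fold lower (1.27 to 1.44). Its log2 ratio of -0.43 was -0.29 with the length trend removed. Of the 12 bromodomain readers of acetyl-lysine log2 ratios of 7 lay above 0 and of 5 below, around a median of 0.05 that was -0.04 with the length trend removed. GTE2 was at 17.9 FPKM in hdt1 against 24.4 FPKM in wild type, GTE7 was 1.22-fold lower (1.17 to 1.28), AT5G46550 (a bromodomain gene) 1.26-fold lower (1.12 to 1.40) and NPX1 1.19-fold higher (1.12 to 1.26). The log2 ratio of NPX1 was 0.24, and 0.04 with the length trend removed.

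The 6 genes that supply acetyl-CoA outside mitochondria or from acetate all had log2 ratios above 0. Over all loci 46.0% did. Their median was 0.21, and 5 had an interval wholly above 1, against 24.7% of all loci. ATP-citrate lyase cleaves citrate to acetyl-CoA in the cytosol. Its subunit gene ACLA-2 was at 8.48 FPKM in hdt1 against 3.96 FPKM in wild type, 2.14-fold higher (1.73 to 2.66), with a log2 ratio of 0.93 that misses the 2-fold limit because of the 1 FPKM added. ACLB-2 was at 14.3 FPKM in hdt1 against 8.92 FPKM in wild type, 1.61-fold higher (1.43 to 1.81). The more abundant ACLA-1 and ACLB-1 were 1.17-fold (1.11 to 1.25) and 1.14-fold (1.05 to 1.24) higher. With the length trend removed the median of the list was 0.16, and ACLA-3, at 0.04 before, was at -0.0021.

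**Figure D5:**
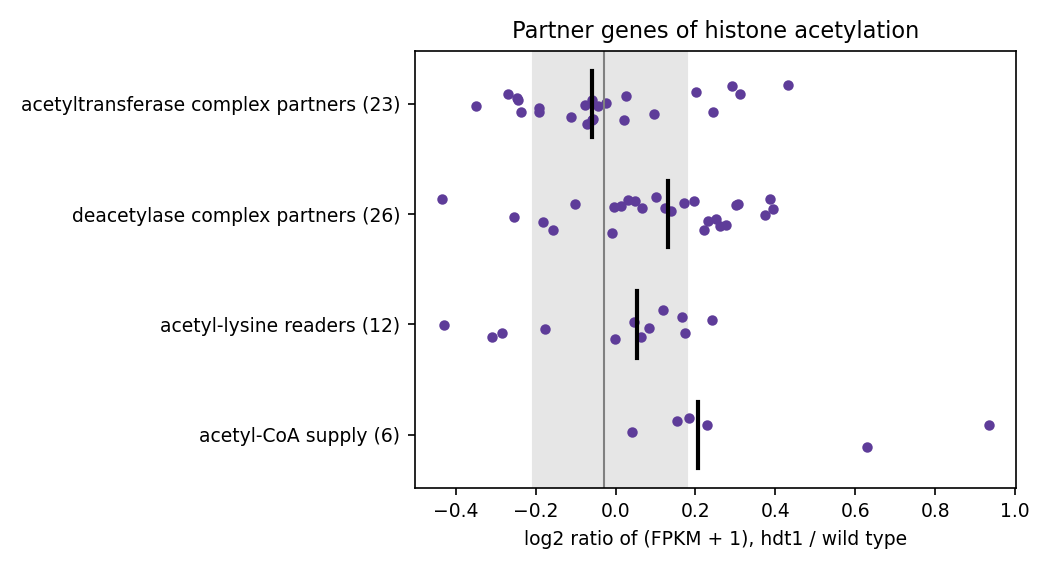
Log2 ratio of (FPKM + 1), hdt1 over wild type, for the genes of the 4 lists of partners, with the number of genes in brackets, a black bar for each list's median, and the median and quartile range of all loci as a grey line and band. ACLA-2 and ACLB-2, at 0.93 and 0.63, lie furthest to the right.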

How the data were processed

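The authors deposited FPKM values for both libraries in 1 table of 33669 features. The submitters' processing notes list HTSeq 0.6.1, TopHat2 2.0.12 and Bowtie2 2.2.3. The sources used here do not give the genome build, annotation, strand setting or whether reads or pairs were counted. Features without a locus identifier (67) were left out. Low values are whole multiples of a constant divided by gene length, which gave the library totals. For 23436 loci it also gave whole reads, up to a common multiple, with a relative error of at most 1.8e-14. That common multiple of both read numbers was settled from RefSeq (TAIR10.1) exon lengths for 25 of the 28 members with reads. Over all loci with reads it was settled for 81.5%. The smallest whole numbers were used for HDT1, HDA8 and HDT4. Other loci with an unsettled multiple likewise kept their minimum reads, so their intervals may be too wide. A count of 0 allows 3 reads. Log2 ratios use a pseudocount of 1 FPKM and loci with a mean of at least 1 FPKM. Removing a trend means subtracting the median of 50 bins and adding back the median of all loci, and was chosen after seeing the data. Exact windows of 50 bases were compared between each member's longest RefSeq transcript and the transcripts of other genes. A planned comparison of the proteins was not made, for want of their sequences here, and no sequence is printed. All members are named, with up to 4 genes of each list by absolute log2 ratio and any past 2-fold. Genes overlapping a member are named from a mean of 1 FPKM. Names of partner genes follow RefSeq, which gives 50 of the 67 loci the listed symbol. Other pseudocounts (0.1 and 5 FPKM), scalings, filters and fold limits were tried. The members and lists were chosen with earlier results of these data known. Python 3.11.15, pandas 2.3.3, numpy 2.4.6 and scipy 1.17.1 were used, and the steps were tested on simulated data.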

Additional observations from a re-analysis of the deposited data

How the results depend on the processing

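With 1 library per genotype, leaving out a replicate was not possible. No paired analysis was possible because each genotype has 1 library and no result comes from a test. The scalings moved the median of all loci from -0.03 to at most 0.03. Of 102 values for class summaries, list medians, counts and HDT1 under the alternatives, 93 stayed within the counting interval or count. The interval of a median was taken from its middle gene or genes. It is not the counting error of a median over the whole list. HDT1 was at -2.50 with a pseudocount of 5 FPKM. With the length trend removed, a setting chosen after seeing the data, the medians were 0.0161 for the acetyltransferases and -0.00021 for the deacetylase partners. The log2 ratio of the summed FPKM of the acetyltransferases, 0.11 as deposited, was 0.18 with equal FPKM sums and 0.17 with centring on genes of at least 10 FPKM; for the RPD3-type genes, -0.0058 as deposited, it was 0.0565 and 0.0499, a change of sign. Without HDT1 the log2 ratio of the HD2 sum was -0.34 instead of -0.57, and the HD2 share differed by -6.20 percentage points instead of -10.1. Scaling to equal FPKM sums adds 0.0623 to the log2 ratio of any sum, and the centring adds 0.0557, by construction. The shifts with a larger pseudocount and without HDT1 likewise follow from the arithmetic. The cause of the length trend was not tested. Of 161 values for single members other than HDT1, 156 stayed within the counting interval. Among these members 0 had a 2-fold call, so none could reverse. HAC1, HAF1, HAG3, HAM1, HDA9, HDA15 and SRT1 changed sign under some setting.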

Other observations

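Among other genes that overlap a member in RefSeq, FC1, a ferrochelatase gene beside HDA2, was at 82.5 FPKM in hdt1 against 76.1 FPKM in wild type. AT5G64600 beside HAM1, AT5G50315 beside HAG3 and AT1G32740 beside HAF1 had log2 ratios of -0.18, -0.02 and 0.08.

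Of the 10 loci measured within 8 genes of HDT1 on either side, 5 averaged 1 FPKM or more, all on the same side of HDT1, and 4 of these had a log2 ratio above 0, against 46.0% of all loci. The gene below 0 was AT3G44740. KP1, PSK3 and ADT4 were named after their values were seen. KP1, a kinesin gene, was at 2.09 FPKM in hdt1 against 0.982 FPKM in wild type, 2.13-fold higher (1.62 to 2.82). PSK3, a phytosulfokine precursor gene, was at 48.9 FPKM in hdt1 against 39.4 FPKM in wild type, and ADT4, of phenylalanine synthesis, at 102 FPKM in hdt1 against 87.0 FPKM in wild type. HDA9, 17 genes from HDT1, had a ratio of 0.997 (0.894 to 1.11).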
